A study of Anser cygnoides with 12 samples.

Results

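The 100 most abundant newGene models in goose breast muscle were described across 12 libraries. They were chosen from the 5497 gene models whose ID carries the word newGene, out of 23065 models in the table, by their mean CPM (a model's count divided by the library's total count, times 1000000) over all libraries. The mean CPM chose the members, so their abundance is given as a description and without a test, while the comparison of the fat groups was not used in the choice. The samples were pectoral (breast) muscle of Xingguo grey geese, Anser cygnoides. RNA was enriched for polyadenylated transcripts before sequencing. The labels put 5 libraries in a group with high intramuscular fat (high_IMF: M001, M006, M0011, M0027 and M0035) and 7 in a group with low intramuscular fat (low_IMF: F001, F006, F009, F0010, F0011, F0013 and F0016). Age, sex, diet, the fat threshold and whether each library is a separate bird are not given in the sources used here, so each p-value reflects only how these samples vary, which may in part be technical. The letters M and F follow the groups and are not explained in the labels, and whatever else they stand for cannot be told apart from the fat group.

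Breast muscle of birds is mostly made of muscle fibres, and its polyadenylated RNA is known to be dominated by a small number of transcripts for contractile proteins, for enzymes of sugar breakdown and for the mitochondrially encoded subunits of the respiratory chain. Intramuscular fat lies between the fibres in fat cells, and partly in the fibres as droplets, and its transcripts are a minor part of the RNA of a whole piece of muscle. IDs of the newGene kind are commonly given to transcribed places that lie outside the gene set in use, and the sources used here do not say how these models were built. None of the 29 marker symbols for muscle, fat, blood, vessel wall, connective tissue and mitochondria was found in the IDs, and none of the 23065 IDs could be matched to the gene table used for names (0 matches). The labelled tissue could therefore not be checked against its markers, and no member is given a gene name, a position or a role. In whole muscle, fewer cells of a type and less RNA per cell cannot be told apart.

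The 5 high_IMF libraries held 14623374 to 18458606 counts each, against 13481727 to 17750379 in the 7 low_IMF libraries. Libraries M001 and M0011 stood apart by the scaling factor that offsets composition (TMM factor 0.499 in M001 and 0.682 in M0011, against 1.01 to 1.36 in the other 10 libraries), so results that they move are also given without them.

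The members were far from equal. Of the 100, 4 had a mean of at least 10000 CPM, while 9 had 1000 to 10000 CPM, 10 had 500 to 1000 CPM and 77 were under 500 CPM. The 4 leading members were among the 10 most abundant of all 23065 models, 18 members were among the 100 most abundant, and the last member was number 573. The median member had a mean of 291 CPM, and the other newGene models a median of 0.323 CPM. At the edge of the choice, newGene_3144 had 168 CPM and newGene_3828 had 167 CPM as the last members, and newGene_65 had 166 CPM and newGene_6104 had 164 CPM just outside. Some members passed this edge only through the group where they are high. On average newGene_2086 had 31.9 CPM in high_IMF and 322 CPM in low_IMF, and newGene_3144 had 233 and 122 CPM. No member was near 0 in any library, as the lowest count of any member was 254, and all 100 passed the filter on low counts. CPM is not divided by transcript length, which the files do not give, so the order of the members is an order of read counts and not of molecules.

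The members together held 58.4% of the counts in M001, 36.1% in M006, 44.6% in M0011, 34.1% in M0027 and 31.4% in M0035. In low_IMF they held 24.8% in F0013, 32.5% in F0010, 32.9% in F009, 33.5% in F0016, 34.7% in F0011, 36.3% in F001 and 37.0% in F006. M001 and M0011 lay above all low_IMF libraries, F0013 lay below all other libraries, and the other 3 high_IMF libraries lay within the low_IMF range. The mean share was 40.9% ± 10.9 for high_IMF (SD, n = 5), against 33.1% ± 4.02 for low_IMF (SD, n = 7). The difference of 7.79 points is smaller than the spread in high_IMF and was not tested, because it is a score over chosen models. It was 3.43 points without M001, 0.75 points without both M001 and M0011, and 6.41 points without F0013 alone. The difference of 0.75 points keeps F0013, the lowest library, in low_IMF. Of all newGene counts, the 100 members held 91.3% ± 3.91 for high_IMF (SD, n = 5), against 87.5% ± 2.58 for low_IMF (SD, n = 7). Without M001 and M0011 the high_IMF value was 88.5% ± 0.383 (SD, n = 3). At this depth the Wilson 95% interval of the members' share ran from 58.35% to 58.40% in M001 and from 32.52% to 32.57% in F0010, which covers counting error only.

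**Figure D1:**
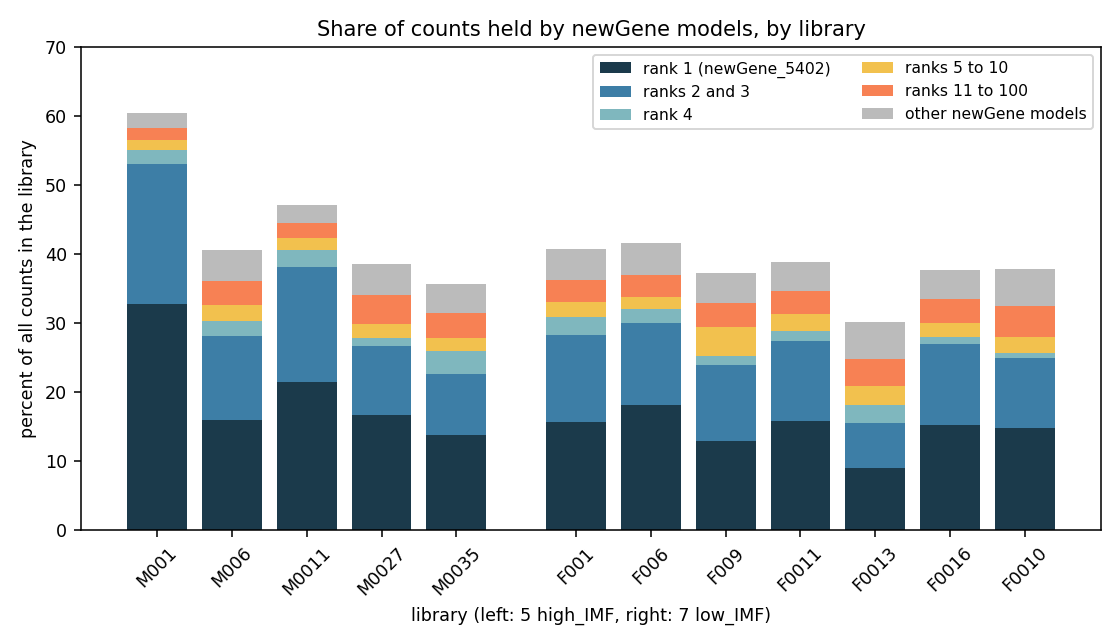
Stacked bars of the percent of all counts in each library that newGene models held, split by the members' rank in mean CPM, with the 5 high_IMF libraries on the left and the 7 low_IMF libraries on the right. The 3 leading members make up 53.1% of the counts in M001 and 38.1% in M0011, and 15.5% in F0013.

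The leading model alone held 44.1% to 56.3% of the members' counts in high_IMF and 36.4% to 48.9% in low_IMF. Anser_cygnoides_newGene_5402, below newGene_5402, was the most abundant of all models in each of the 12 libraries. It held 32.8% of the counts in M001, 16% in M006, 21.5% in M0011, 16.6% in M0027 and 13.9% in M0035. In low_IMF it held 9.04% in F0013, 13% in F009, 14.8% in F0010, 15.3% in F0016, 15.7% in F001, 15.8% in F0011 and 18.1% in F006. The groups overlapped, and only M001 and M0011 lay above the highest low_IMF library. Its mean share was 20.2% ± 7.62 for high_IMF (SD, n = 5), against 14.5% ± 2.85 for low_IMF (SD, n = 7). This 5.64-point difference missed the threshold in a two-sided exact permutation test over all 792 group assignments (p = 0.0707, smallest possible 0.00126). Without M001 and M0011 the difference was 0.967 points (exact permutation p = 0.633). Leaving out 1 library gave an exact permutation p under 0.05 without M0035 (0.0212, difference 7.22 points) and without F006 (0.0476, difference 6.23 points), while without M001 the difference was 2.47 points.

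The members ranked 2 and 3 shared this pattern. newGene_5761 had 120176, 77290, 107013, 56175 and 54173 CPM in M001, M006, M0011, M0027 and M0035, against a low_IMF median of 73369 CPM between 43492 and 86313 CPM. newGene_6529 had 82755, 44675, 58996, 44681 and 33693 CPM in the same libraries, against a low_IMF median of 40239 CPM between 21297 and 53472 CPM. For both, M001 and M0011 were the highest of all libraries, F0013 was the lowest, and the groups overlapped. newGene_1165, the fourth, had another order of libraries. It had 19563, 21193, 24948, 10790 and 33975 CPM in the same order, against a low_IMF median of 13833 CPM between 6647 and 27067 CPM, with its highest value in M0035 and its lowest in F0010.

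Within the members, the leading 3 held 81.0% ± 7.35 of the members' counts for high_IMF (SD, n = 5), against 75.9% ± 6.57 for low_IMF (SD, n = 7). The leading 10 held 91.7% ± 4.03 for high_IMF and 88.8% ± 2.65 for low_IMF. Without M001 and M0011 the high_IMF values were 76.2% ± 3.62 for the leading 3 and 88.9% ± 1.32 for the leading 10 (SD, n = 3), close to low_IMF. The inverse Simpson number, which gives how many equally abundant models would be as concentrated, was 3.44 ± 0.55 for high_IMF (SD, n = 5), against 4.03 ± 0.686 for low_IMF (SD, n = 7), and 3.79 ± 0.266 for high_IMF without M001 and M0011 (SD, n = 3). It ran from 2.63 in M001 to 4.03 in M0035 within high_IMF and from 3.39 in F006 to 5.39 in F0013 within low_IMF. For the 100 most abundant placed models (IDs with a chromosome or contig), the same number was 16.5 ± 2.41 for high_IMF, against 17.8 ± 2.49 for low_IMF. With the 3 leading members taken out of both the members and the total, the other 97 held between 9.99% and 11.4% of the remaining counts in high_IMF and between 8.87% and 11.8% in low_IMF. The libraries M001 (11.2%) and M0011 (10.5%) did not stand apart on this measure.

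The order of the members was similar between libraries of a group. Over pairs of libraries, Spearman's rho across the 100 members had a median of 0.861 within high_IMF (10 pairs, lowest 0.728) and 0.791 within low_IMF (21 pairs, lowest 0.618). Between the groups it had a median of 0.636 (35 pairs, from 0.473 to 0.795). These are correlations across models that share libraries, and models are not independent replicates. Members that passed the edge only through 1 group, such as newGene_2086, may in part lower the values between groups. This was not tested, and the placed models were not compared on this measure. Of the 100 newGene models that were highest in a single library, 77 to 84 were members in high_IMF and 81 to 89 in low_IMF.

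The next comparison asked which members differed in level between muscle with high and with low intramuscular fat. The quasi-likelihood test of edgeR was fitted to all 14031 models that passed the count filter, with TMM scaling and Benjamini-Hochberg adjustment over all of them, and an adjusted p under 0.05 is named a call. Of the 100 members, 33 were called, against 18.0% of all models tested. They divided into 16 higher (8.47% of all models) and 17 lower (9.53%) in high_IMF, and the other 67 did not pass. At least 2-fold differences were called for 11 members in each direction, against 3.81% of all models higher and 5.55% lower. A log2 fold change above 0, with or without a call, was found for 64 members, against 48.9% of all models. The median log2 fold change over the 100 members was 0.20, from -2.95 to 1.88, against -0.02 over all models tested. Among the 100 most abundant placed models, 21 were called, 19 of them higher and 2 lower, with a median log2 fold change of 0.43. Among the 2309 other newGene models tested, 401 were called, 164 higher and 237 lower. These counts describe the lists, and the differences between lists were not tested. Of the members called lower, newGene_2086, newGene_3399, newGene_8741, newGene_3086, newGene_10061, newGene_10019, newGene_2780 and newGene_7152 had high_IMF means of 31.9 to 149 CPM. Of those called higher, newGene_3144, newGene_3828 and newGene_301 had low_IMF means of 117 to 152 CPM. The last member had a mean of 167 CPM over all libraries, so these entered the list only through the group where they are high. The shares of members called, also at 2-fold, may in part follow from this.

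These counts moved with the scaling and with the libraries used. With CPM of raw totals and no scaling factor, 4 members were called higher and 21 lower, against 1.06% and 17.5% of all models in that fit. When library sizes left out the 10 models with most counts, 10 members were called higher and 20 lower, against 3.89% and 14.2% of all models. Raw totals moved the median log2 fold change of all models to -0.42 and that of the members to -0.19, so that the members stood 0.23 above all models with raw totals and 0.21 above them with TMM. All 16 higher members kept a positive and all 17 lower members a negative log2 fold change with raw totals, and 4 of the 16 and all 17 kept their call. The 4 were newGene_5764, newGene_3672, newGene_4374 and newGene_3144. Without M001 and M0011, 7 of the 16 and 13 of the 17 kept their call, in a fit that called 4.07% of all models higher and 6.71% lower. Of the 33, 25 were called in each of the 12 fits that left out 1 library, 10 of them higher and 15 lower. The fit used 5 and 7 libraries, and a member without a call is not shown to be equal between the groups.

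**Figure D2:**
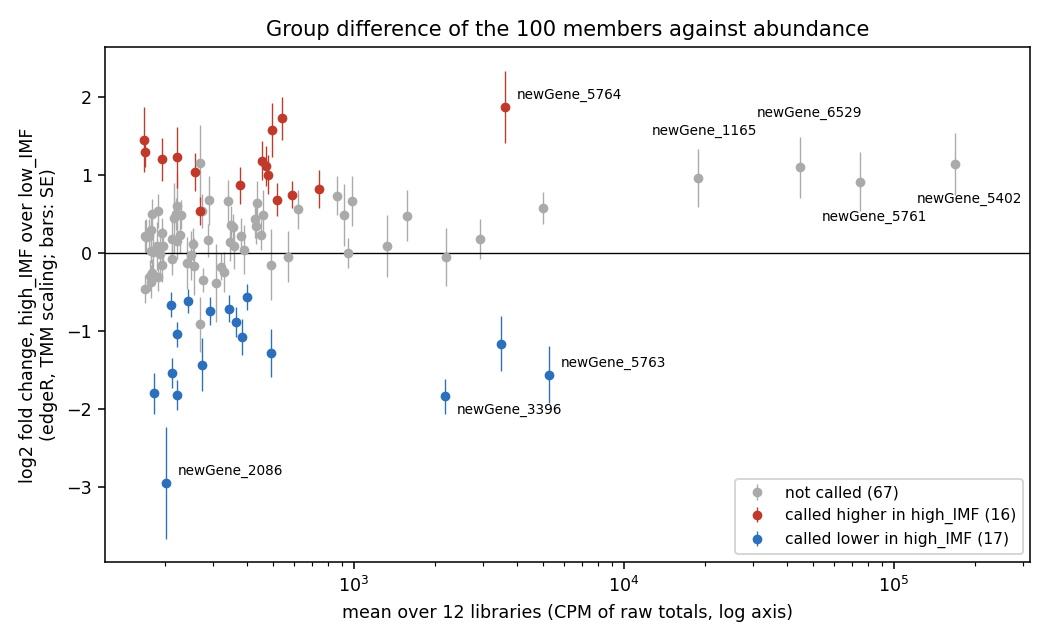
Log2 fold change of each member (high_IMF over low_IMF, edgeR with TMM scaling, bars are standard errors) against its mean over the 12 libraries in CPM on a log axis, with called members in colour. The 4 leading members lie between 0.92 and 1.15 without a call, and the called members, 16 higher and 17 lower, lie below 10000 CPM.

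Levels below are TMM-scaled CPM, in which the library total is multiplied by its TMM factor. None of the 4 leading members was called by edgeR, while DESeq2 called all 4 (DESeq2 adjusted p 0.0102 to 0.0399). newGene_5402 had a log2 fold change of 1.15 (SE 0.39) with an edgeR adjusted p = 0.0558, newGene_5761 one of 0.92 (adjusted p = 0.105), newGene_6529 one of 1.10 (adjusted p = 0.0628) and newGene_1165 one of 0.97 (adjusted p = 0.0822). With raw totals these log2 fold changes were 0.47, 0.26, 0.44 and 0.42, and without M001 and M0011 they were 0.22, -0.02, 0.20 and 0.59. newGene_5402 was called without M006, M0027 or M0035 (lowest edgeR adjusted p 0.0332) and newGene_6529 without M006 or M0035 (lowest 0.0417), while without M001 their edgeR adjusted p was 0.203 and 0.227. newGene_1165 was called without M0027 alone (edgeR adjusted p = 0.0337).

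Of the 10 leading members, 3 were called, 1 higher and 2 lower, against 18.0% of all models. newGene_5763, the fifth, had 3693, 1882, 1828, 2120 and 2006 scaled CPM in M001, M006, M0011, M0027 and M0035, against a low_IMF median of 5895 between 3032 (F001) and 14476 (F009). M001 overlapped the 1 lowest low_IMF library, and the other 4 high_IMF libraries lay below all of them. In CPM of raw totals all 5 high_IMF libraries (1247 to 2145) lay below all low_IMF libraries (3471 to 15690). It fell 2.95-fold (log2 fold change -1.56, SE 0.37, edgeR adjusted p = 0.0112), with an adjusted p of 0.0291 at most over the fits that left out 1 library and of 0.0218 without M001 and M0011.

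newGene_5764, the seventh, whose ID number follows that of newGene_5763, moved the other way. It had 16360, 3592, 12558, 2708 and 3307 scaled CPM in M001, M006, M0011, M0027 and M0035, against a low_IMF median of 2026 between 919 (F0013) and 3911 (F001). The 2 libraries that stand apart were far above the rest, and the other 3 high_IMF libraries overlapped F001. It rose 3.68-fold (log2 fold change 1.88, SE 0.46, edgeR adjusted p = 0.0139) and was called with raw totals too (1.17, edgeR adjusted p = 0.0214). Without M001 and M0011 the log2 value was 0.62, with an edgeR adjusted p of 0.265.

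newGene_3987, the eighth, had 1536, 2655, 1308, 1753 and 2130 scaled CPM in M001, M006, M0011, M0027 and M0035, against a low_IMF median of 4017 between 1401 (F006) and 8548 (F009). F006 lay within the range of high_IMF, and the other 6 low_IMF libraries lay above it. It fell 2.24-fold (log2 fold change -1.16, SE 0.36, edgeR adjusted p = 0.0351), and this call was lost without M001, M0011, M0027, M0035, F009 or F0011 (highest edgeR adjusted p 0.0861), and without M001 and M0011 together (-0.94, edgeR adjusted p = 0.168). The other leading members were not called. newGene_4506 had a log2 fold change of 0.58 (edgeR adjusted p = 0.0656, called without F009 at 0.0406 and by DESeq2 at 0.0106), newGene_2132 of 0.18 (0.651) and newGene_9246 of -0.05 (0.938).

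The first member by abundance without overlap between the groups in scaled CPM was newGene_3396, ranked 11. It had 837, 542, 1161, 646 and 770 scaled CPM in M001, M006, M0011, M0027 and M0035, against a low_IMF median of 2961 between 2088 (F006) and 3247 (F0010). All 5 high_IMF libraries lay below all 7 low_IMF libraries. It fell 3.59-fold (log2 fold change -1.84, SE 0.22, edgeR adjusted p = 2.61e-04), with an adjusted p of at most 0.00136 over the fits that left out 1 library. newGene_3399, 3 numbers on in the ID, had 79.1, 60.2, 98.5, 76.9 and 88.7 scaled CPM in the same libraries, against a low_IMF median of 284 between 214 (F009) and 364 (F0010). It fell 3.53-fold (log2 fold change -1.82, SE 0.19, edgeR adjusted p = 1.23e-04) and did not overlap either. newGene_3399 entered the list only through low_IMF, with means of 68.1 CPM of raw totals in high_IMF and 329 in low_IMF. Whether these 2 IDs are parts of 1 transcript cannot be told from the files.

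In scaled CPM, 11 of the 100 members had all high_IMF libraries below all low_IMF libraries, against 4.91% of all models tested, and in CPM of raw totals 15 had (9.90% of all models). The 11 were all among the 17 called lower. Of the 11, newGene_3399, newGene_3086, newGene_8741, newGene_10019, newGene_2780 and newGene_7152 entered the list only through low_IMF. In CPM of raw totals their means were 68.1, 77.7, 53.2, 108, 127 and 149 in high_IMF, against 270 to 329 in low_IMF. The last member had a mean of 167 CPM over all libraries. The others of the 11 had means above that in both groups. The share of members without overlap may in part follow from this choice. newGene_3086 had 102.4, 82.1, 91.9, 93.7 and 88.9 scaled CPM in the high_IMF libraries M001, M006, M0011, M0027 and M0035, against a low_IMF median of 249 between 186 and 374. All high_IMF libraries lay below all low_IMF libraries. It fell 2.91-fold (log2 fold change -1.54, SE 0.19, edgeR adjusted p = 2.76e-04). newGene_8741 fell 3.49-fold (log2 fold change -1.80, SE 0.27, edgeR adjusted p = 9.36e-04), with 41.8 to 109 scaled CPM in high_IMF and 142 to 302 in low_IMF. newGene_10019 was 1 of the 3 members with the smallest spread within groups (SD 0.18 on the log2 scale). It had 128 ± 12.8 scaled CPM for high_IMF (SD, n = 5), against 264 ± 33.8 for low_IMF (SD, n = 7), with a log2 fold change of -1.05 (edgeR adjusted p = 0.00105). newGene_7152, another of the 3, had 177 ± 22.5 scaled CPM for high_IMF (SD, n = 5), against 271 ± 26.5 for low_IMF (SD, n = 7), with a log2 fold change of -0.61 (edgeR adjusted p = 0.014). The remaining one, newGene_592, had a log2 fold change of 0.03 (edgeR adjusted p = 0.912).

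The lowest log2 fold change of the 100 was that of newGene_2086. It had 36.6, 31.8, 29.7, 66.6 and 18.3 scaled CPM in M001, M006, M0011, M0027 and M0035. In low_IMF it had 31.7 in F006 and 34.0 in F001, 110 in F0013, and 278 to 732 in the other 4 libraries. F001 and F006 lay within the high_IMF range, and the other 5 low_IMF libraries lay above it. It fell 7.75-fold (log2 fold change -2.95, SE 0.72, edgeR adjusted p = 0.0131), had the largest within-group spread of all members (SD 1.46 on the log2 scale), and was not called without M001 and M0011 (-2.87, edgeR adjusted p = 0.0736). newGene_10061 and newGene_10062, which have consecutive ID numbers, fell 2.70-fold and 2.44-fold (log2 fold changes -1.43 and -1.28, edgeR adjusted p = 0.0119 and 0.0117). For each, high_IMF and low_IMF libraries overlapped in scaled CPM.

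In the other direction, 5 of the 100 members had all high_IMF libraries above all low_IMF libraries in scaled CPM (2.89% of all models tested), while 0 were free of overlap in CPM of raw totals (0.321% of all models). newGene_3672 had 631, 1198, 435, 793 and 1517 scaled CPM in M001, M006, M0011, M0027 and M0035, against a low_IMF median of 253 between 208 (F009) and 374 (F0013). All high_IMF libraries lay above all low_IMF libraries on this scale. It rose 3.32-fold (log2 fold change 1.73, SE 0.28, edgeR adjusted p = 0.00139), and without M001 and M0011 its log2 fold change was 2.10 (edgeR adjusted p = 6.64e-04). newGene_3144, at the edge of the choice, had 216, 265, 218, 340.5 and 269 scaled CPM in the same libraries, against a low_IMF median of 103.8 between 82.2 and 140. It did not overlap and rose 2.45-fold (log2 fold change 1.29, SE 0.19, edgeR adjusted p = 7.68e-04). newGene_1141 rose 2.27-fold (log2 fold change 1.19, SE 0.25, edgeR adjusted p = 0.00697), with 544 to 955 scaled CPM in high_IMF and 178 to 449 in low_IMF, also without overlap. With raw totals it was not called (0.75, edgeR adjusted p = 0.0522).

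Some members called higher lost the call with fewer libraries or with raw totals. newGene_4374 rose 3.00-fold (log2 fold change 1.58, SE 0.35, edgeR adjusted p = 0.00808), with 451 to 1279 scaled CPM in high_IMF and 123 to 472 in low_IMF, and was called in each of the 12 fits that left out 1 library, but not without both M001 and M0011 (1.17, edgeR adjusted p = 0.0645). newGene_301 rose 2.30-fold (log2 fold change 1.203, edgeR adjusted p = 0.00992) and was not called without M001 and M0011 (edgeR adjusted p = 0.0501) or with raw totals (0.75, edgeR adjusted p = 0.0753). newGene_3828, the last member by abundance, rose 2.75-fold (log2 fold change 1.46, edgeR adjusted p = 0.0266), and its call was lost without M001, M0035 or F0016 (highest edgeR adjusted p 0.07) and with raw totals (0.116). newGene_2937 rose 2.35-fold (log2 fold change 1.23, edgeR adjusted p = 0.0428) and was called in 3 of the 12 fits that left out 1 library, those without M006, F001 or F0011, and neither without M001 and M0011 (edgeR adjusted p = 0.196) nor with raw totals (0.177).

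**Figure D3:**
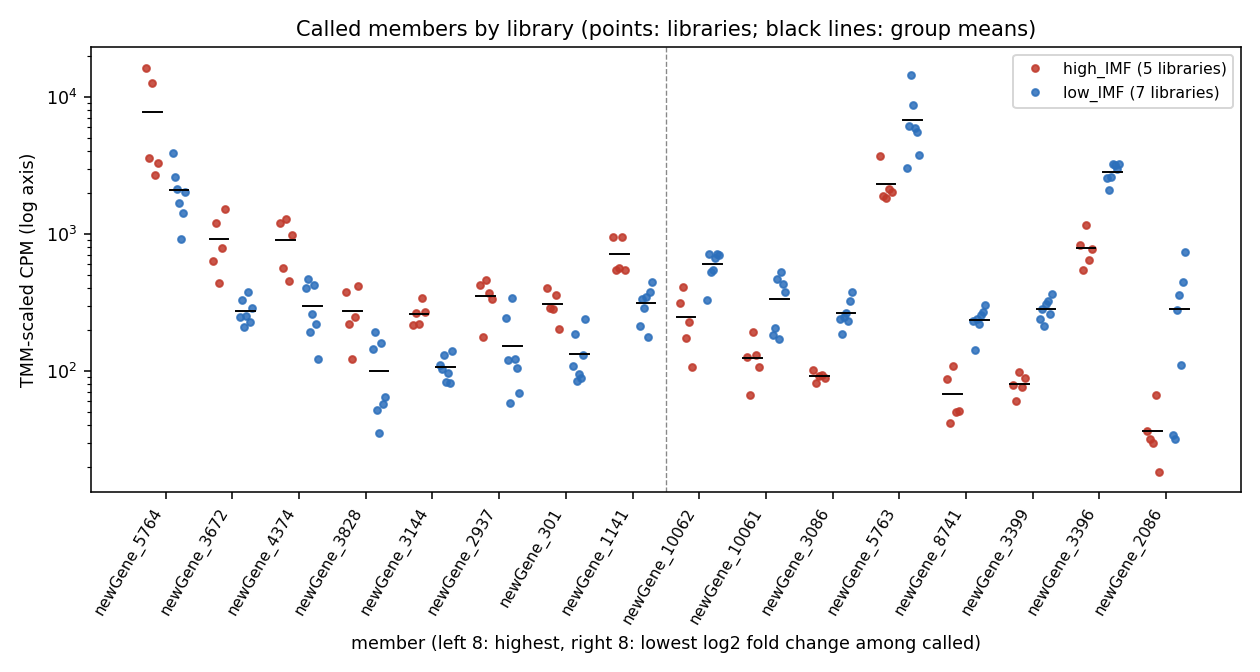
TMM-scaled CPM on a log axis of the 8 called members with the highest and the 8 with the lowest log2 fold change, with each library as a point (high_IMF left of low_IMF) and group means as black lines. newGene_3396, newGene_3399, newGene_3086 and newGene_8741 have no overlap between groups, and newGene_2086 has 2 low_IMF libraries at the high_IMF level.

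Ratios between members within a library need no scaling. newGene_5402 held 3.97, 3.58, 3.65, 3.73 and 4.11 times the counts of newGene_6529 in M001, M006, M0011, M0027 and M0035, and 3.38 (F006) to 4.25 (F0013) times in low_IMF. The mean ratio was 3.81 ± 0.225 for high_IMF (SD, n = 5), against 3.79 ± 0.29 for low_IMF (SD, n = 7), although the share of newGene_5402 itself ranged from 9.04% to 32.8%. In contrast, newGene_5763 held 0.226, 0.524, 0.146, 0.783 and 0.606 times the counts of newGene_5764 in M001, M006, M0011, M0027 and M0035. In low_IMF this ratio was 0.775 in F001, 1.85 in F0010, 2.38 in F006, 3.88 in F0016, 5.23 in F0011, 6.41 in F0013 and 6.81 in F009. The groups met only where M0027 (0.783) lay above F001 (0.775). newGene_5761, 2 ID numbers before newGene_5763, held 26.2 to 85.8 times its counts in high_IMF and 4.76 to 24.9 times in low_IMF, without overlap. These ratios were singled out after their values were seen and were not tested.

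**Figure D4:**
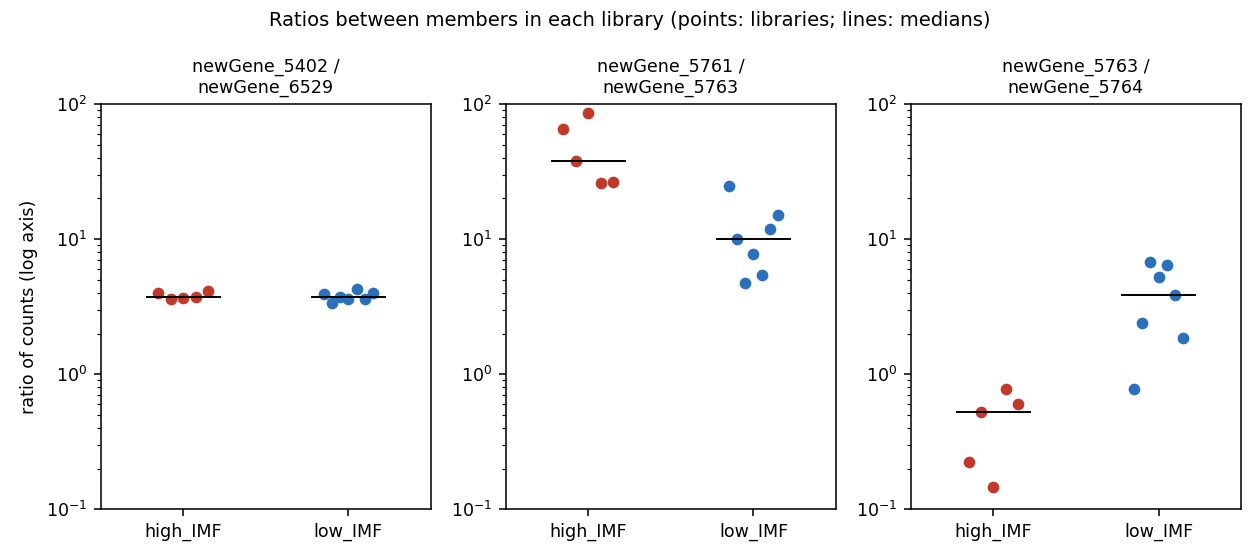
Ratio of the counts of 2 members in each library on a log axis, for newGene_5402 over newGene_6529, newGene_5761 over newGene_5763 and newGene_5763 over newGene_5764, with high_IMF left of low_IMF and medians as lines. The first ratio stays between 3.38 and 4.25 in all libraries, and the last lies between 0.146 and 0.783 in high_IMF and between 0.775 and 6.81 in low_IMF.

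How the members varied together was described with Pearson's r of log2 TMM-scaled CPM over the 12 libraries after the mean of each fat group had been taken off, so that the group difference does not enter. All pairs share the same libraries and depths, and the values carry no test. Over the 4950 pairs the median r was 0.144, the quartiles were -0.211 and 0.441, and the range was -0.982 to 0.991. The median was 0.080 without F0010, and 0.462 with CPM of raw totals in place of the scaled values. Values above 0.8 were found for 210 pairs (4.24%) and below -0.8 for 78 pairs (1.58%). The 100 most abundant placed models had a median of 0.167, with 260 pairs (5.25%) above 0.8 and 48 (0.97%) below -0.8. The first principal component held 41.7% of the members' variation within groups, against 40.2% in the placed models. It ran from F0010 (-5.81) and M0027 (-5.49) at one end to F001 (3.44) and M001 (3.34) at the other. F0010 and M0027 also had the lowest total counts of the 12 libraries (13481727 and 14623374). F006, with the next lowest total (15124773), lay towards the other end (2.77), and M006, with a high total (17915628), lay at -1.47. The part of depth in this component was not tested. The median within-group SD of a member was 0.43 on the log2 scale, against 0.42 in the placed models and 0.48 over all models tested. The 5 largest were those of newGene_2086 (1.46), newGene_9482 (1.19), newGene_4782 (1.01), newGene_6434 (0.944) and newGene_3268 (0.942). newGene_4782 was not called (log2 fold change 1.16, edgeR adjusted p = 0.115), and its log2 fold change was 0.54 without M0027.

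The pair with the highest r was newGene_5402 and newGene_6529 (0.991, and 0.988 without M001 and M0011). Most like newGene_5402 after that were newGene_5761 (0.946, and 0.898 without M001 and M0011) and newGene_5764 (0.872, and 0.795). Least like it were newGene_3060 (-0.737, and -0.605 without M001 and M0011), newGene_3333 (-0.731, and -0.659) and newGene_4122 (-0.671, and -0.471). Among less abundant members, newGene_3200 and newGene_1772 had an r of 0.968, newGene_5148 and newGene_8763 of 0.963, newGene_684 and newGene_7503 of 0.961, and newGene_3435 and newGene_5148 of 0.956. None of these 7 was called between the fat groups, with log2 fold changes from -0.24 to 0.21.

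Grouping the members by average linkage at a distance of 0.5 (1 - r) gave 10 blocks of at least 4 members, with 82 members in them, and this grouping was chosen after the values were seen. The largest block held 26 members, led by newGene_9246, newGene_9004 and newGene_1788, with a median r of 0.78 within it. Averaged over its members it stood highest in M0027 (0.80 above its group mean on the log2 scale) and F0010 (0.77) and lowest in M001 (-0.48) and M0011 (-0.43). Of its 26 members, 1 was called, lower, against 18.0% of all models called in either direction. A block of 9, led by newGene_1165 and newGene_9406, went against it, with a negative r for 233 of the 234 pairs between both blocks (median -0.724), and 4 of the 9 were called higher (16 of all 100 members, 8.47% of all models). These 4 were newGene_5699, newGene_4374, newGene_9110 and newGene_9007. Without M001 and M0011 each of them lost its call (edgeR adjusted p 0.0645 to 0.205). The most abundant block held newGene_5402, newGene_5761, newGene_6529, newGene_5764, newGene_7152 and newGene_592. It stood 1.06 above its group mean in M001 and 0.49 in M0011, and 0.68 below in F0013 and 0.62 below in M0035. These are scaled values. In CPM of raw totals, newGene_592 (111) and newGene_7152 (105) had their lowest value of all libraries in M001, where newGene_5402 (328379) had its highest. In the block of newGene_4633, 5 of 6 members were called lower, and in the block of newGene_3396, 3 of 4, while 0 members of either were called higher (17 of all 100 members were called lower, 9.53% of all models). Of these, newGene_10019, newGene_3086, newGene_2086 and newGene_8741 had high_IMF means of 108, 77.7, 31.9 and 53.2 CPM of raw totals. They entered the list only through low_IMF, as the last member had a mean of 167 CPM. The share called lower in these blocks may in part follow from this choice. The blocks used deviations within groups and the calls the difference between groups, but both come from the same libraries.

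**Figure D5:**
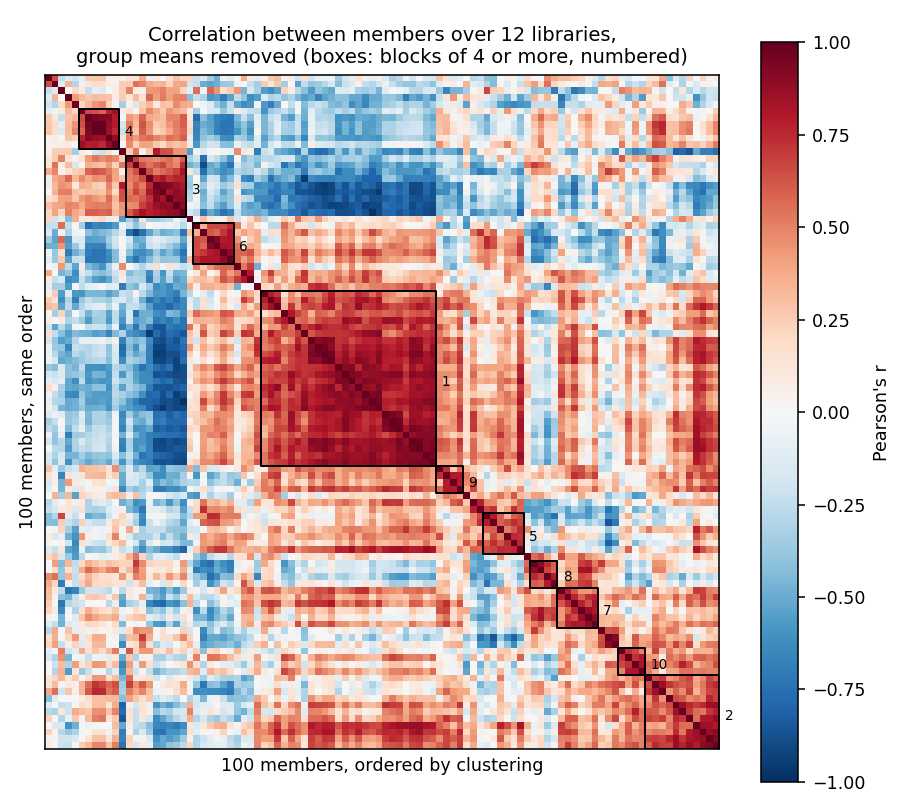
Pearson's r between all 100 members over the 12 libraries with the group means taken off, in the order of average-linkage clustering, with black boxes around blocks of at least 4 members, numbered by size. Block 1 holds 26 members and is blue against block 3, with which its median r is -0.724.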

How the data were processed

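Gene-level RNA sequencing of 12 libraries was used. The authors deposited raw counts per gene model in 1 table, as whole numbers with no normalization, and all 12 columns were used. The tool names HISAT2 and DESeq2 appear, without version or role, per the submitters' processing notes. The counting program, genome build, annotation, strand setting and molecular identifiers are not given in the sources used here, so reads of overlapping, antisense or copied models cannot be told apart.

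Groups came from the sample titles. Counts were filtered with filterByExpr (minimum count 10), TMM-scaled, and compared over 14031 models by edgeR's quasi-likelihood test (edgeR 4.0.16, R 4.3.3), with Benjamini-Hochberg adjustment and a threshold of 0.05, and the members' rows were read from that fit. SEs were derived from the F statistic. The test was tested on simulated data. Single shares were compared with exact permutation tests (scipy 1.17.1). Log2 CPM used a prior count of 2. Alternatives used limma 3.58.1, DESeq2 1.42.0, other scalings, filters, lists and libraries left out. Named members were the 10 most abundant, the 8 highest and 8 lowest called folds, the 5 largest and 3 smallest within-group SDs, the 3 most and 3 least like the leading member, the 5 closest pairs, consecutive IDs and the edge of the choice (41 members). The members, lists and tests were chosen with earlier results of these data known. All pairs of libraries differed beyond sampling noise (lowest chi-square per model 32.6 over 66 pairs). No sequence of any member was available here to print.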

Additional observations from a re-analysis of the deposited data

Results flagged for a closer look

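The values of the 41 named members and 4 summary measures were searched in each fat group for a library far from the rest by Dixon's test, in CPM of raw totals. Of 90 groups of values, 10 were marked, where chance marks about 1 in 20 (4.5 of 90), and the measures are not independent.

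F0010 stood apart for 6 members. newGene_9482 had 729 CPM in F0010, where the next low_IMF library had 371. newGene_3200 had 618 (next 381), newGene_8763 had 645 (next 325), newGene_684 had 483 (next 312), newGene_7503 had 283 (next 172) and newGene_3435 had 772 (next 415). These 6 belong to the largest block of members that vary together, and none was called between the groups. F0010 also had the lowest total count of the 12 libraries, whose part in these values was not tested.

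F0013 stood apart in low_IMF for 2 measures. The members' share was 24.8% in F0013, and 32.5% in the nearest other low_IMF library. newGene_3333 had 277 CPM in F0013, where the next library had 210.

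In high_IMF, newGene_3268 had 537 CPM in M0027, where the next library had 165, and its log2 fold change of 0.45 was -0.0025 without M0027. newGene_8741 had 74.1 CPM in M0011, where the next library had 51.8, and its call held without M0011. Not marked was newGene_9482, which had 13.8 CPM in M0011 and 97.8 to 492 CPM in the other high_IMF libraries. Its log2 fold change of -0.38 was -0.098 without M0011.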

How the results depend on the processing

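None of the 33 was called in the opposite direction in any other fit. The fits of 6 libraries described below called 0 members, so they could not show a turned call. Signs with or without a call were compared for raw totals, DESeq2 and the fit without M001 and M0011, and none of the 33 changed sign there. In place of 16 members, those called higher numbered 4 with raw totals (1.06% of all models), 10 with library sizes that leave out the 10 most abundant models (3.89%), 10 without M001 and M0011 (4.07%) and 10 without F001 and F009 (4.17%). With each library left out they numbered 11 to 20, against 5.07% to 8.92% of all models. In place of 17, those called lower numbered 21 (17.5% of all models), 20 (14.2%), 13 (6.71%) and 15 (6.22%) in the same 4 settings. With each library left out they numbered 15 to 17, against 6.79% to 10.3% of all models. These counts include members not called with TMM and all libraries. Lists of 50 members gave 10 higher (20%) and 9 lower (18%), and of 200 members 28 higher (14%) and 34 lower (17%). Over all models of that fit the shares were 8.47% higher and 9.53% lower. DESeq2 gave 24 higher and 17 lower (10.7% and 10.4% of all models).

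The labels do not say whether the library numbers that both groups share (1, 6 and 11) pair the samples. The deviations of libraries with the same number had correlations of 0.000164, -0.124 and 0.114, which cannot settle it. A replicate block on the shared numbers, which leaves 6 libraries, gave 0 members higher and 0 lower. That fit called 0.0362% of all 13827 models tested higher and 0.0579% lower. A fit of those 6 libraries with no such block, chosen after seeing the data, also gave 0 and 0 (0.0289% and 0.130% of all models). Calls were thus few over the whole table in both fits. The high_IMF libraries in both fits were M001, M006 and M0011, so the libraries that stand apart by scaling factor were kept. The cause of the lost calls was not tested.

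The difference in the members' share was 3.43 to 10.2 points and that of the leading model 2.47 (without M001) to 7.22 points with each library left out, past the threshold without M0035 (7.22) and F006 (6.23). The median r between members was 0.080 (without F0010) to 0.160 with each library left out and 0.462 with CPM of raw totals.

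Over all 100 members, the log2 fold change changed sign for 27 with raw totals and for 13 without M001 and M0011, none of them called (0 in both). Among the 41 named members, those with raw totals were newGene_2132 (-0.20), newGene_592 (-0.44), newGene_3333 (-0.077), newGene_4122 (-0.12), newGene_3200 (-0.21), newGene_684 (-0.20), newGene_7503 (-0.14) and newGene_3435 (-0.23), in a fit where all models shifted to a median of -0.42. Among the named members without M001 and M0011 they were newGene_5761 (-0.024), newGene_9246 (0.36), newGene_9482 (0.075), newGene_592 (-0.14), newGene_3060 (0.16), newGene_1772 (0.082) and newGene_8763 (0.087). With each library left out, the named newGene_9246 ran from -0.36 to 0.14, newGene_6434 from -0.41 to 0.087, newGene_3268 from -0.0025 to 0.63, newGene_592 from -0.043 to 0.086, newGene_3200 from -0.069 to 0.31, newGene_1772 from -0.24 to 0.017, newGene_8763 from -0.48 to 0.15, newGene_684 from -0.0098 to 0.31 and newGene_3435 from -0.033 to 0.36. The cause of these changes was not tested.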

Other observations

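Members whose ID numbers are close did not all vary together. Of 9 pairs of members with ID numbers at most 5 apart, 2 had an r above 0.5 over the 12 libraries with group means taken off, newGene_5761 with newGene_5764 (0.92) and newGene_3396 with newGene_3399 (0.70). The consecutive pairs had an r of 0.04 (newGene_5763 with newGene_5764) and 0.02 (newGene_10061 with newGene_10062), and newGene_9004 with newGene_9007 had -0.49. The sources used here do not say whether the numbers follow the genome. Strong opposite variation was seen for newGene_3708 with newGene_6705 (r = -0.982, 12 libraries), whose ratio of counts ran from 0.993 in M001 to 9.10 in M0027, and for newGene_4374 with newGene_4342 (r = -0.955), whose ratio ran from 0.307 in F0010 to 10.6 in M001. These pairs were picked for their r after it was seen, and no test was made.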
